A study of Bos taurus with 6 samples.

Results

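The DNA replication machinery was followed in bovine embryonic stem cells as 43 genes, chosen by name for what their proteins do: origin licensing, the replicative helicase, the polymerases, the sliding clamp and its loader, single-strand binding, Okazaki fragment maturation and nucleotide supply. The rule uses no measured value, but earlier results of these data were known when the genes were chosen. All 43 were found by symbol and by Entrez identifier among the 19163 genes of the count table, and all 43 were among the 13001 genes that passed the filter on low counts.

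The cells were F7, 1 line of pluripotent stem cells derived from a Holstein Friesian embryo made by in vitro fertilisation. They were grown either on mouse embryonic fibroblasts (MEFs) whose division had been stopped with mitomycin C, which are alive (MC-F7, labelled 1M), or on MEFs fixed with methanol, which are dead (MT-F7). The medium was refreshed every day for MC-F7 and every other day for MT-F7, so feeder and medium renewal cannot be told apart here. Each group had 3 RNA-seq libraries, at passage 15 in both. Dissociated cells were left on gelatin and the floating cells were taken for RNA, a step that reduces but need not remove feeder cells. The paper reports a higher alignment rate to the cattle genome for MT-F7 than for MC-F7. It proposes that fixed feeders left less feeder cell contamination, and the part of such carry-over in these values was not tested. Every result rests on 1 cell line, and no source used here says if the 3 libraries were separate cultures. The paper's statistics section speaks in general of at least 3 technical replicates and does not name the RNA-seq libraries. The p values therefore cover only the spread between these libraries, which may be technical.

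Before a cell copies its DNA, the origin recognition complex marks the start sites, and CDC6 and CDT1 load the ring-shaped MCM helicase there in an inactive form. In S phase, CDC45 and the GINS complex join the ring and start the unwinding, primase with polymerase alpha lays down primers, and polymerases epsilon and delta extend them on a sliding clamp of PCNA. Embryonic stem cells spend a large share of their cycle in S phase and are known for high levels of these proteins.

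The libraries held 21958386 to 24933430 counts. The mitochondrial genome took 16.3% to 28.3% of them, and replicate 3 had the largest share in each group. Of 9 pluripotency markers, 7 were found among the counted genes, and none of these was at 0 in every library. By edgeR's test 6 fell in MT-F7 (POU5F1, NANOG, LIN28A, DPPA4, TDGF1 and ZFP42), where 11.3% of all tested genes fell. SALL4, the seventh, did not pass. SOX2 and LIN28B were not found among the counted genes, which does not show that they lacked reads. The paper reports SOX2 protein in MT-F7 cells. LIN28B had deposited TPM values, which were close between the feeders. Scaled to the same total in each library, their means were 5.53 ± 1.36 for MC-F7 against 5.69 ± 0.447 for MT-F7 (SD, n = 3). The summed level of all 7 was 959 to 1603 counts per 1000000 (CPM) in MC-F7 and 582 to 631 CPM in MT-F7, most of it POU5F1, at 825 to 1456 CPM and 486 to 557 CPM. Of 11 fibroblast markers, none was at 0 in every library and 4 rose (COL3A1, POSTN, PDGFRB and FN1), where 11.9% of all tested genes rose. The summed level of all 11 was 304 to 397 CPM in MC-F7 and 497 to 581 CPM in MT-F7, and its largest part was COL1A1, which did not pass, at 170 to 231 CPM and 256 to 286 CPM. By edgeR's test the adjusted p of LIN28A was 0.0648, 0.0925 and 0.0874 without MC-F7 replicate 2, MT-F7 replicate 1 or MT-F7 replicate 2, that of POSTN 0.0591 without MT-F7 replicate 2, and that of PDGFRB 0.0522, 0.0655 and 0.0575 without MC-F7 replicate 1, MC-F7 replicate 2 or MT-F7 replicate 3. The part of these markers in the values that follow was not tested.

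The RNA of the replication machinery differed little between the feeders. Of the 43 genes, 3 passed edgeR's quasi-likelihood test at a Benjamini-Hochberg adjusted p of 0.05, and all 3 fell in MT-F7: ORC1, a subunit of the origin recognition complex, GINS2, a subunit of the helicase activator, and POLD2, a subunit of polymerase delta. That is 7.0% of the genes, where 23.2% of all tested genes passed (11.9% higher and 11.3% lower in MT-F7). Of the 43, 21 had a log2 fold change above 0 and 22 below 0, with a median of -0.004 against -0.003 for all tested genes. In bulk RNA, a change in the share of cycling cells and a change in replication RNA per cell cannot be told apart. The paper reports a comparable growth rate of MC-F7 and MT-F7.

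The sizes of the differences were small. The log2 fold changes of MT-F7 over MC-F7 lay between -0.53 (ORC1) and 0.47 (PRIM1), and their median size was 0.16 against 0.34 for all tested genes. A log2 fold change larger in size than that of ORC1 was seen in 4324 genes, 33.3% of those tested. None of the 43 passed the test with a log2 change over 1, that is over 2-fold, which 11.5% of all tested genes did. The 95% confidence intervals of all 43 lay inside a 2-fold change in either direction, their outer bounds being -0.87 and 0.97 on the log2 scale. Such an interval was found for 61.6% of all tested genes, which were measured at lower levels: the median of the mean levels was 65.0 CPM over the replication genes and 16.8 CPM over all tested genes, and the median standard errors were 0.160 and 0.202.

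**Figure D1:**
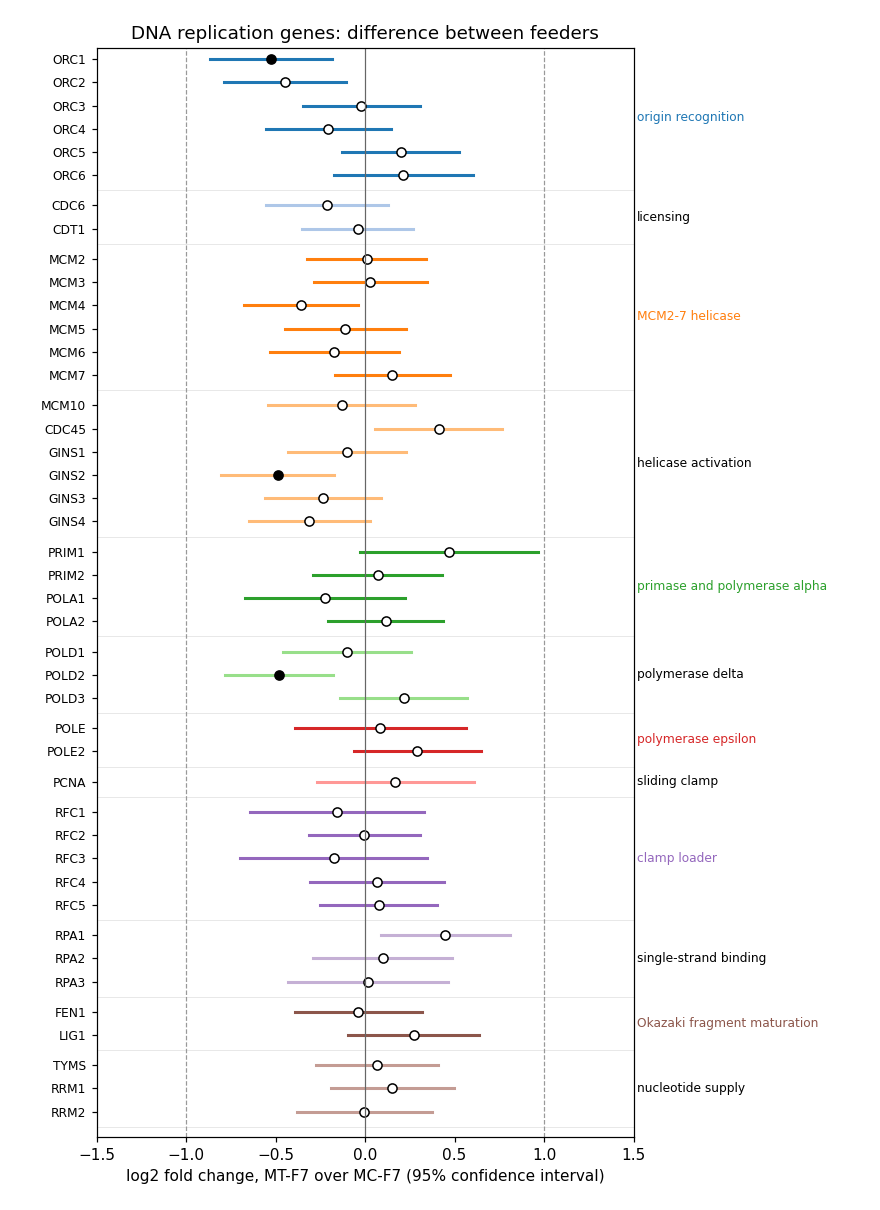
Log2 fold change of MT-F7 over MC-F7 (x axis) with its 95% confidence interval for each of the 43 replication genes (y axis), 3 libraries a group, with filled points for genes that passed the test, open points for the others, and colours by role. ORC1, GINS2 and POLD2 lie below 0 and every interval stays between -1 and 1.

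**Figure D2:**
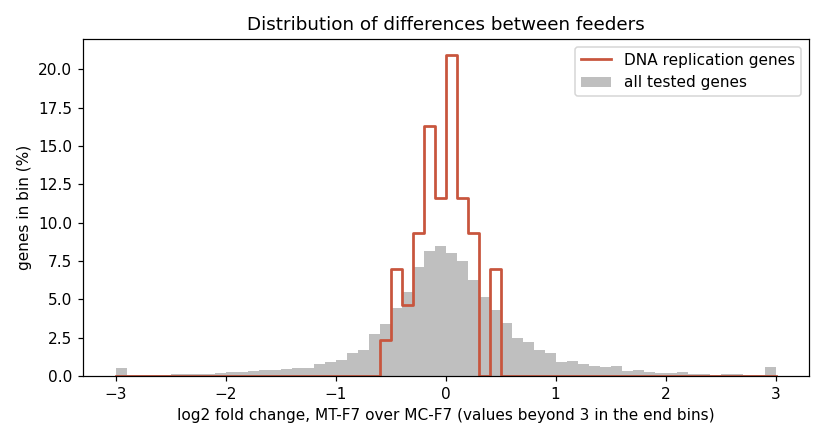
Percentage of genes (y axis) by log2 fold change of MT-F7 over MC-F7 (x axis) for the 13001 tested genes (grey bars) and the 43 replication genes (line); values beyond 3 are in the end bins. The replication genes sit between -0.53 and 0.47, inside the range of the bars.

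Libraries could be told apart by feeder for 11 of the 43 genes, in the sense that the 3 values of one group did not overlap those of the other (25.6%, where 40.0% of all tested genes had groups that did not overlap). CDC45, PRIM1 and RPA1 were higher in every MT-F7 library (19.9% of all tested genes were), and ORC1, ORC2, CDC6, MCM4, GINS2, GINS3, GINS4 and POLD2 were lower in every one (20.1% of all tested genes were). Of these, only ORC1, GINS2 and POLD2 also passed the adjusted test. Without adjustment, 7 of the 43 had a p under 0.05, where 35.8% of all tested genes did.

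Among the 6 subunits of the origin recognition complex, which binds origins and recruits CDC6, only ORC1 passed the test. ORC1 was at 74.5, 79.7 and 67.0 CPM in the MC-F7 libraries and 55.7, 55.1 and 42.7 CPM in the MT-F7 libraries. The lowest MC-F7 value lay above the highest MT-F7 value, and replicate 3 was the lowest of both groups. The mean fell from 73.7 ± 6.39 to 51.2 ± 7.33 CPM (SD, n = 3), a log2 fold change of -0.53 (SE 0.158; adjusted p = 0.0289, edgeR's quasi-likelihood test). With any library other than MC-F7 replicate 3 left out, its adjusted p in the same edgeR test was between 0.0503 and 0.141. On the deposited TPM values, scaled to the same total in each library, the adjusted p of limma was 0.108 for ORC1.

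ORC2, a core subunit of the same complex, was at 36.8, 39.4 and 33.3 CPM in MC-F7 and 27.8, 29.1 and 23.4 CPM in MT-F7. These groups did not overlap either, yet the log2 fold change of -0.45 had an adjusted p of 0.0567 by edgeR's test. The other subunits had values on both sides of 0: ORC3 at -0.02, ORC4 at -0.21, ORC5 at 0.20 and ORC6 at 0.21 on the log2 scale, none of them past the test, and their libraries overlapped between the groups. In ORC6, replicates 1 and 2 of MT-F7 were at 22.6 and 22.3 CPM and replicate 3 was at 15.6 CPM, below all of MC-F7 (17.2 to 17.6 CPM).

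The licensing factors CDC6 and CDT1, which load the MCM ring onto origins, did not pass the test. CDC6, the ATPase of the pair, was at 16.5, 17.9 and 17.8 CPM in MC-F7 and 15.7, 14.9 and 14.3 CPM in MT-F7. Its groups were separate by a narrow margin and its log2 fold change was -0.22 (SE 0.157). CDT1, the partner that carries the MCM ring, was at 64.7 to 72.3 CPM in MC-F7 and 61.0 to 70.1 CPM in MT-F7. Its groups overlapped, and its log2 fold change was -0.04 (SE 0.143).

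The ring of MCM2 to MCM7, the motor of the replicative helicase, was among the most abundant parts of the machinery, and none of its 6 genes passed the test. Summed over the 6 genes, the level was 2440, 2156 and 2229 CPM in MC-F7 and 2144, 2216 and 2302 CPM in MT-F7, so the groups overlapped. MCM2 was at 655, 564 and 559 CPM in MC-F7 and 566, 578 and 645 CPM in MT-F7. Its log2 fold change was 0.01, with a 95% interval of -0.32 to 0.34. MCM4 was the single subunit with separate groups, at 269, 283 and 321 CPM in MC-F7 and 223, 217 and 240.3 CPM in MT-F7, and its log2 fold change of -0.36 had an adjusted p of 0.0969 by edgeR's test. The remaining subunits had log2 fold changes of 0.03 (MCM3), -0.11 (MCM5), -0.17 (MCM6) and 0.15 (MCM7), with overlapping groups. With replicate 3 of both groups left out, MCM2 turned from 0.01 to -0.08.

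CDC45, MCM10 and the GINS complex turn the loaded ring into a working helicase, and within this group the values went in both directions. GINS2 was at 206, 196 and 175 CPM in MC-F7 and 143, 142 and 125 CPM in MT-F7. All MT-F7 libraries were below all MC-F7 libraries, and the mean fell from 192 ± 15.4 to 137 ± 10.5 CPM (SD, n = 3). The log2 fold change was -0.49 (SE 0.146; adjusted p = 0.0279, edgeR's quasi-likelihood test). In the same edgeR test the adjusted p was 0.0189 and 0.0445 without replicate 3 of MC-F7 or of MT-F7, and between 0.0717 and 0.118 without any of the other 4 libraries. On the TPM values the adjusted p of limma was 0.103 for GINS2.

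The other GINS subunits, which sit with GINS2 in the same complex, were lower by less. GINS3 was at 28.7, 24.7 and 26.1 CPM in MC-F7 and 22.3, 22.7 and 22.4 CPM in MT-F7, and GINS4 at 32.0, 27.0 and 30.3 CPM and 24.2, 21.7 and 26.0 CPM. Both had separate groups, with log2 fold changes of -0.23 and -0.31 that did not pass the test, and GINS1 overlapped at -0.10. CDC45, which joins the ring together with GINS, was at 50.7, 52.0 and 66.8 CPM in MC-F7 and 70.2, 68.9 and 86.2 CPM in MT-F7. Here every MT-F7 library was higher, by a log2 fold change of 0.41 (SE 0.165) with an adjusted p of 0.0923 in edgeR and 0.0468 in limma on the TPM values. MCM10, which helps the ring to open, had overlapping groups and a log2 fold change of -0.13 (SE 0.189).

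**Figure D3:**
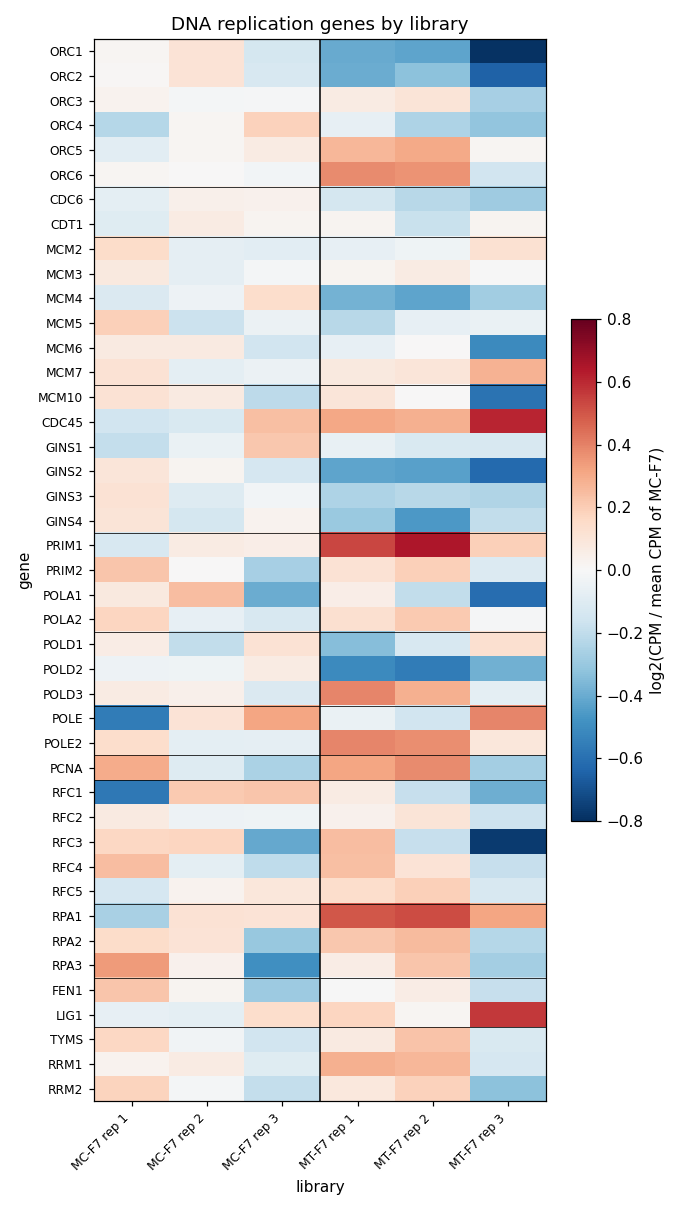
Level of each of the 43 replication genes (y axis) in each library (x axis), as log2 of the CPM over the mean CPM of MC-F7 (colour). ORC1, GINS2 and POLD2 are below the MC-F7 mean in all MT-F7 libraries, and 19 genes are lowest in replicate 3 of both groups.

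Primase makes the RNA primers that polymerase alpha extends, and none of the 4 genes passed the test. PRIM1, the catalytic subunit of primase, had the largest positive log2 fold change of the 43 genes, 0.47 (SE 0.230; adjusted p = 0.163, edgeR's quasi-likelihood test). It was also the gene with the fewest counts, at 3.54, 4.06 and 4.02 CPM in MC-F7 and 5.62, 6.06 and 4.42 CPM in MT-F7. The groups did not overlap, but MT-F7 replicate 3 was close to MC-F7. Its partner PRIM2 was at 0.07, the polymerase alpha catalytic subunit POLA1 at -0.23 and the accessory subunit POLA2 at 0.11 on the log2 scale, with overlapping groups.

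Polymerase delta, the main polymerase of the lagging strand, had 1 subunit that fell. POLD2, the accessory subunit that links the catalytic subunit to the others, was at 93.2, 93.6 and 100.2 CPM in MC-F7 and 67.3, 64.9 and 73.2 CPM in MT-F7. The groups lay far apart relative to their spread, with means of 95.6 ± 3.96 and 68.5 ± 4.28 CPM (SD, n = 3). The log2 fold change was -0.48 (SE 0.140; adjusted p = 0.0245, edgeR's quasi-likelihood test), and in the same edgeR test the adjusted p was 0.0931 without MC-F7 replicate 2, 0.0926 without MT-F7 replicate 1 and 0.108 without MT-F7 replicate 2. On the TPM values the adjusted p of limma was 0.0527 for POLD2. The catalytic subunit POLD1 was at 265, 223 and 276 CPM in MC-F7 and 201, 233 and 278 CPM in MT-F7, overlapping, with a log2 fold change of -0.10, and POLD3, a further accessory subunit, was at 0.22.

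Polymerase epsilon copies the leading strand. Its catalytic subunit POLE varied more within MC-F7 (30.5, 48.5 and 55.8 CPM) than the means differed (44.9 and 47.6 CPM), and the log2 fold change was 0.08 (SE 0.221). POLE2, the second subunit, was at 16.7 to 19.4 CPM in MC-F7 and 18.8 to 23.1 CPM in MT-F7. The groups overlapped, and the log2 fold change of 0.29 did not pass the test.

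PCNA, the sliding clamp that holds the polymerases on DNA and is widely used as a marker of proliferating cells, was at 349, 265 and 239 CPM in MC-F7 and 354, 369.5 and 235 CPM in MT-F7. The groups overlapped, and replicate 3 was the lowest in both. The means were 284 ± 57.5 and 319.6 ± 73.7 CPM (SD, n = 3), and the log2 fold change of 0.17 had a 95% interval of -0.27 to 0.61. The clamp is placed on DNA by the 5 subunits of the clamp loader, RFC1 to RFC5, all with overlapping groups and log2 fold changes between -0.18 (RFC3) and 0.08 (RFC5). RFC2 had the smallest difference of the 43 genes, at 125, 116 and 116 CPM in MC-F7 and 122, 128 and 106 CPM in MT-F7 and a log2 fold change of -0.004.

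The replication protein A complex coats single-stranded DNA. RPA1, its large subunit, was at 15.1, 19.6 and 19.5 CPM in MC-F7 and 25.5, 25.9 and 22.5 CPM in MT-F7. All MT-F7 libraries were higher, by a log2 fold change of 0.45 with an adjusted p of 0.0711 in edgeR's test. RPA2 and RPA3 overlapped, at 0.10 and 0.02. With replicate 3 of both groups left out, RPA3 turned from 0.02 to -0.04.

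FEN1, the nuclease that trims Okazaki fragments, and LIG1, the ligase that joins them, did not pass the test, with log2 fold changes of -0.04 and 0.27. LIG1 was at 152, 151 and 175 CPM in MC-F7 and 180, 161 and 236 CPM in MT-F7, the groups overlapping through MT-F7 replicate 2. The genes of nucleotide supply were near equal: TYMS, the enzyme that makes thymidylate, at 0.07, and RRM1 and RRM2, the large and small subunits of ribonucleotide reductase, at 0.15 and -0.01 on the log2 scale. RRM2, the second smallest difference of all 43, was at 345, 302 and 267 CPM in MC-F7 and 323, 346 and 243 CPM in MT-F7.

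Much of the spread within groups followed replicate 3. For 19 of the 43 genes (44.2%) replicate 3 was the lowest library of both groups, where 25.8% of all tested genes had this pattern. PCNA, RRM2, TYMS and the RPA subunit RPA2 were among them. It was the highest of both groups for 6 genes, MCM4, CDC45, POLD1, POLD2, POLE and LIG1, where 24.7% of all tested genes had that pattern. The higher mitochondrial share of these libraries moved with it. In an edgeR fit without the genes of the mitochondrial genome, 23.2% of all tested genes passed, as in the fit reported. That fit removed only 13 genes, and a share over all tested genes does not address the replicate 3 pattern. The part of the mitochondrial share in that pattern was not tested. With replicate 3 of both groups left out, 6 of the 43 genes passed edgeR's test, 2 higher and 4 lower in MT-F7, where 32.4% of all tested genes passed. That comparison was added after the data had been seen. Leaving out MC-F7 replicate 1, 2 or 3 left 1, 0 and 5 of the 43 genes past the test, where 20.2%, 14.5% and 23.4% of all tested genes passed. Leaving out MT-F7 replicate 1, 2 or 3 left 0, 0 and 2, where 16.3%, 16.9% and 23.3% passed. By limma on the TPM values 1 gene passed, CDC45, where 20.5% of all tested genes passed with a pseudocount of 1 and 20.2% with 0.1.

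Levels were compared between subunits per length, on the deposited TPM values rescaled to the same total in each library. The subunits of a complex that work in equal numbers did not have equal RNA. In the MCM ring the MC-F7 means ran from 213 for MCM2 through 199 for MCM5, 193 for MCM3, 143 for MCM7 and 103 for MCM4 to 42.5 for MCM6 (rescaled TPM), and in MT-F7 from 226 for MCM2 to 40.1 for MCM6. The values of MCM2, MCM3 and MCM5 overlapped with their neighbours in both groups, and MCM7, MCM4 and MCM6 each stood below the subunit before them in all libraries. MCM2 was 5.45 ± 1.17 times MCM6 (SD over 6 libraries).

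The other complexes of 3 or more subunits were also uneven, while RRM2 was 1.42 ± 0.131 times RRM1 (SD over 6 libraries), with values that overlapped in MT-F7. GINS2 was at 210 ± 21.8 rescaled TPM in MC-F7 and 158 ± 18.7 in MT-F7, far above GINS1 at 24.8 ± 3.13 and 24.5 ± 1.40 (SD, n = 3), so that the subunit that fell was also the most abundant of the 4. POLD2 lay between POLD1 and POLD3 in both groups, without overlap. RPA3 was 20.3 ± 7.42 times RPA1, RFC2 was 17.3 ± 4.35 times RFC1, and POLA2 was 11.5 ± 2.30 times PRIM1 (SD over 6 libraries). The origin recognition complex was the most even of the 7 complexes with 3 or more subunits, its highest subunit being 2.91 ± 0.181 times its lowest. ORC1 was the highest of its 6 subunits in MC-F7 at 34.5 ± 4.29 rescaled TPM, overlapping with ORC4 at 31.1 ± 4.14. In MT-F7 ORC1 was at 25.4 ± 4.63, the fourth in order, and only ORC2, the lowest in both groups, did not overlap with its neighbour.

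**Figure D4:**
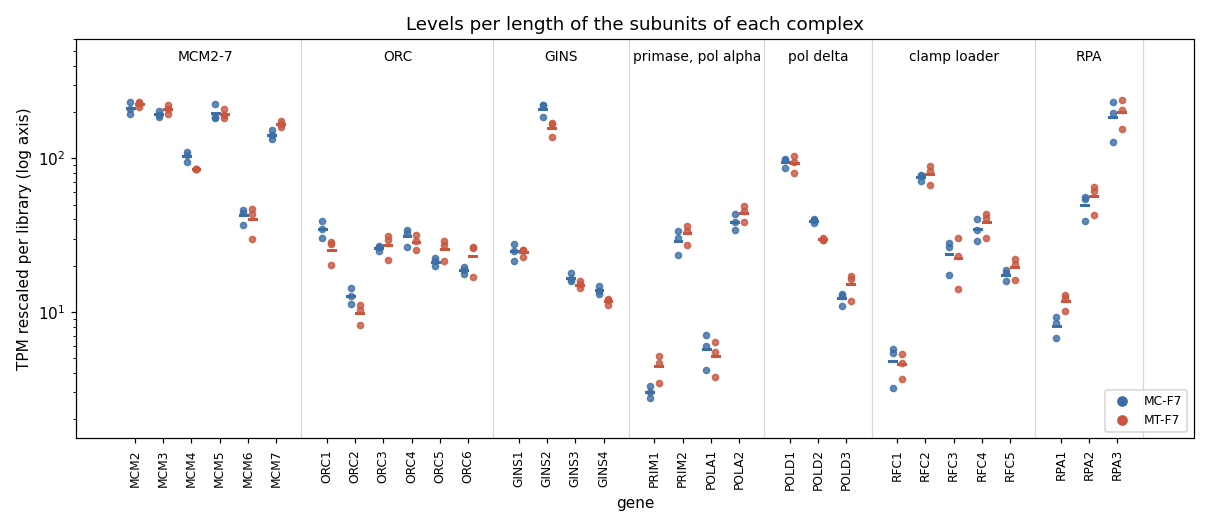
Rescaled TPM on a log axis (y axis) of the subunits of 7 replication complexes (x axis), with a point for each library and a bar at the mean of MC-F7 and MT-F7, 3 libraries each. GINS2 stands far above GINS1, GINS3 and GINS4, while the subunits of the origin recognition complex lie closer together.

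A further list held 48 other replication genes, all tested: small polymerase subunits, regulators of firing, fork protection factors, alternative clamp loaders, topoisomerases, chromatin assembly factors, nucleotide enzymes and MCM paralogs. Of these, 7 passed the test (14.6%, against the 23.2% of all tested genes), 5 higher and 2 lower in MT-F7, and the median log2 fold change was -0.006. The largest rise was that of PCLAF, a small PCNA-binding protein, at 62.0, 49.0 and 45.9 CPM in MC-F7 and 101, 127 and 81.0 CPM in MT-F7. PCLAF rose by a log2 fold change of 0.98 (SE 0.188; adjusted p = 0.00252, edgeR's quasi-likelihood test), while PCNA itself did not pass the test. MCM8, a helicase paralog that acts in recombination repair rather than in the ring, was at 12.4, 14.0 and 16.9 CPM in MC-F7 and 8.37, 8.07 and 8.11 CPM in MT-F7. MCM8 fell by 0.82 on the log2 scale (SE 0.183; adjusted p = 0.00617, edgeR's test), and both genes passed with any 1 library left out.

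The other 5 changed by less. The firing kinase subunit CDC7 rose by 0.53, WDHD1, which ties polymerase alpha to the helicase, by 0.49, CHTF18, part of an alternative clamp loader, by 0.43 and the topoisomerase TOP2B by 0.44 on the log2 scale. TIPIN, a fork protection factor, was at -0.49. CDC7, WDHD1 and TIPIN passed in 2 of the 6 tests that left out 1 library, TOP2B in 1 and CHTF18 in 0.

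Transcription of many replication genes is driven by E2F factors, which RB proteins hold back and cyclin E kinases release. Of 18 genes of this control, 17 were tested and 4 passed (23.5%, against 23.2% of all tested genes). RB1 was at 6.77, 6.47 and 5.66 CPM in MC-F7 and 14.1, 14.8 and 14.6 CPM in MT-F7. Its groups lay far apart, and RB1 rose by a log2 fold change of 1.20 (SE 0.177; adjusted p = 3.7e-04, edgeR's quasi-likelihood test), passing with any 1 library left out. CCNE2, a cyclin E, was at 9.38, 13.4 and 11.8 CPM in MC-F7 and 19.2, 22.3 and 17.3 CPM in MT-F7, and rose by 0.76 with an adjusted p of 0.0103 in edgeR (0.0508 without MT-F7 replicate 2). The phosphatase CDC25A, which activates the S-phase kinases, and TFDP2, a partner of the E2F factors, were at -0.50 and -0.51 and passed in 2 and in 1 of the 6 tests that left out a library. E2F5 was not analysed here.

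Of 26 mitosis genes, set beside replication as another group of cell cycle genes, 25 were tested and 2 passed (8.0%, against 23.2% of all tested genes), both higher in MT-F7, with a median log2 fold change of -0.002. ANLN, a scaffold of the contractile ring, was at 4.51, 6.92 and 7.39 CPM in MC-F7 and 11.4, 10.4 and 13.2 CPM in MT-F7, and rose by 0.89 with an adjusted p of 0.0107 in edgeR. CENPF, a protein of the outer kinetochore, rose by 0.53 and passed in 3 of the 6 tests that left out a library. MAD2L1 was not analysed here.

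**Figure D5:**
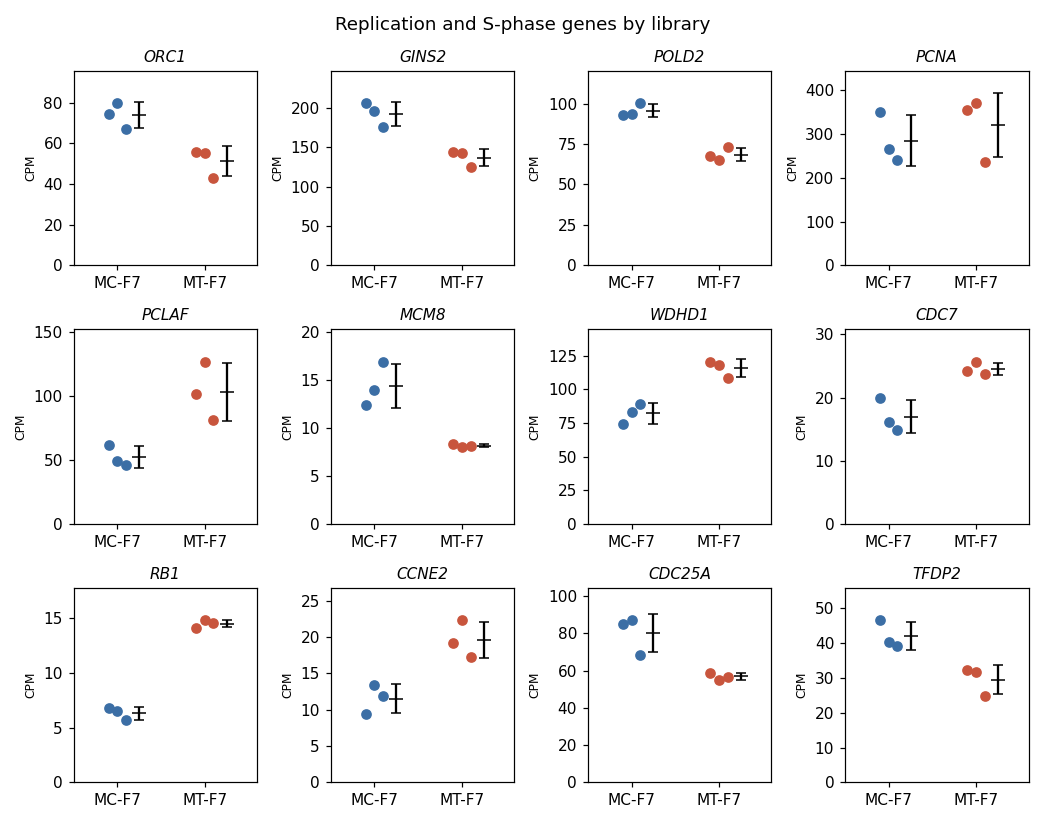
CPM (y axis, from 0) of 12 replication and S-phase control genes in each of the 3 MC-F7 and 3 MT-F7 libraries (points), with the mean and SD beside them. ORC1, GINS2, POLD2, MCM8, CDC25A and TFDP2 are lower and PCLAF, WDHD1, CDC7, RB1 and CCNE2 higher in every MT-F7 library, while the groups of PCNA overlap.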

How the data were processed

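RNA-seq of MC-F7 and MT-F7 was used, with 3 libraries in each group. Per the labels and methods, the authors aligned paired reads with HISAT2 2.0.5 to the cattle genome and deposited raw counts per Entrez gene from featureCounts 1.5.0-p3; the genome build and the strand setting are not given in the sources used here. The authors also deposited values they call TPM, whose columns added up to 154763 to 164394. The ratio of TPM to count of each replication gene was the same in every library. These TPM values were rescaled to 1 common total for levels per length, which rest on the gene lengths the authors used. Symbols came from RefSeq (ARS-UCD2.0), and 89 of 19163 genes had none.

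Low genes were removed with filterByExpr (at least 10 counts, 15 in total), and libraries were scaled by TMM (factors 0.971 to 1.04) and tested with edgeR 4.0.16 in R 4.3.3, two-sided and without a block, with Benjamini-Hochberg adjustment over 13001 genes. CPM values use the TMM-scaled library sizes. Alternatives used limma 3.58.1 on log2(TPM + 1) or log2(TPM + 0.1), mean TPM 1 or more, and DESeq2 1.42.0. Others used other scalings, no filter, no mitochondrial-genome genes, a block and libraries left out. TMM was not applied to the TPM values, so the limma fits differ from edgeR in scaling as well as in the test. The replication genes and lists were chosen with earlier results of these data known. The text accounts for all 43 genes, with each library's value for those that passed the test and for the 2 largest and 2 smallest differences; genes of other lists are named if they passed. MCM4, CDC45, PCNA and some others shown by library were added after their values were seen. In simulated data of 3 libraries a group and 13045 tested genes, 79 of 90 genes changed by 1 on the log2 scale were recovered, and 110 of 110 changed by 2. Of 197 calls, 8 were false. The simulation gave all genes the same dispersion and had no replicate effect. Smaller changes, such as those of the 43 genes, were not simulated, so their recovery is not known.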

Additional observations from a re-analysis of the deposited data

How the results depend on the processing

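Of the 43 replication genes, 3 passed in the edgeR fit reported, and the count was 0 with an absolute log2 fold change over 1 also required, 0 to 5 with 1 library left out, and 6 without replicate 3 of both groups. By limma it was 1, CDC45, for both log2(TPM + 1) and log2(TPM + 0.1), and stayed within 1.5 times of 3 under the other scalings, without the filter and by DESeq2. Of the 48 other replication genes, 7 passed, against 0 over a log2 change of 1, 2 to 8 with 1 library left out and 12 without replicate 3 of both groups. Of the E2F and RB genes, 4 passed, against 1 over a log2 change of 1, 1 to 4 with 1 library left out and 2 by limma on log2(TPM + 0.1). Of the mitosis genes, 2 passed, against 0 over a log2 change of 1, 1 to 5 with 1 library left out and 6 without replicate 3 of both groups. The cause of these shifts was not tested. The folds between the highest and the lowest subunit of a complex were also taken without rescaling, which leaves such ratios the same by construction.

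With the replicate number as a block, 7 replication genes passed (ORC2, MCM4, CDC45 and RPA1 besides the 3), 13 other replication genes and 6 mitosis genes, where 36.0% of all tested genes passed. The correlations of deviations between libraries of the same number were 0.134, 0.0445 and 0.417, and replicate 1 of MC-F7 correlated best with replicate 2 of MT-F7 (0.279), so the numbers were not taken to pair the libraries.

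The direction of a replication gene turned in 47 of 645 single values, in 17 genes whose reported log2 fold changes were at most 0.18 in size, and the smallest adjusted p of a turned value was 0.51. With library size only, RFC2 was at 0.014 and RRM2 at 0.015, and with all genes of at least 1 count at 0.00094 and 0.00018. By limma on log2(TPM + 1), CDT1 was at 0.036, ORC3 at 0.048, FEN1 at 0.052, RRM2 at 0.067 and RFC2 at 0.072, and on log2(TPM + 0.1) at 0.037, 0.049, 0.053, 0.067 and 0.073. Without replicate 3 of both groups, RPA3 was at -0.036, MCM2 at -0.076, GINS1 at 0.046, RRM2 at 0.064, RFC2 at 0.069, RFC1 at 0.084 and ORC3 at 0.097. With 1 library left out, the log2 fold changes ran from -0.087 to 0.024 (CDT1), -0.17 to 0.087 (FEN1), -0.19 to 0.013 (GINS1), -0.27 to 0.045 (MCM10), -0.058 to 0.088 (MCM2), -0.0050 to 0.072 (MCM3), -0.087 to 0.079 (ORC3), -0.13 to 0.26 (POLE), -0.049 to 0.19 (PRIM2), -0.059 to 0.063 (RFC2), -0.45 to 0.040 (RFC3), -0.033 to 0.21 (RFC4), -0.038 to 0.23 (RPA2), -0.18 to 0.22 (RPA3), -0.11 to 0.13 (RRM2) and -0.021 to 0.16 (TYMS).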
